A study of Mus musculus with 16 samples.

Results

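The expression profile of unstimulated primary murine gingival fibroblasts (mGF) was described from the 4 BSA (control) libraries of a bulk RNA-seq series of 16 libraries. They were selected by their treatment label, and the other 12 libraries held cells given IL-1β, palmitate or both and are not compared here. The cells were WT fibroblasts grown from explants of the gingiva around the maxillary second molar of C57Bl6 mice aged 3 to 6 months, kept in medium with 20% fetal bovine serum and used between passages 2 and 8. The 4 samples received BSA, the protein that carries the fatty acid in the other groups, as the 200 µM vehicle for 24 hours, so the profile is that of serum-fed, vehicle-treated cells in culture and not of gingival tissue. Whether the 4 replicates came from separate animals or separate cultures was not stated, so the SDs below measure the spread between these samples, which may be technical.

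Gingival fibroblasts build and renew the collagen-rich connective tissue that holds the gum to the tooth. They derive from cells of the neural crest, which also give rise to the bone, ligament and cementum of the jaw. They carry receptors for inflammatory cytokines and take part in periodontal inflammation, in which IL-1 is a central cytokine, while adenosine made outside the cell from released ATP is known to dampen such responses.

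The libraries held between 25695360 and 32600223 counts on genes. Levels are given as CPM, a gene's counts scaled to a fixed total per library, as mean ± SD over n = 4 libraries. Ratios between genes are given per kilobase of exon (RPKM). Where genes are set beside each other in CPM, the values are not corrected for length. A gene was called present where it had at least 1 CPM in every BSA library, and at the counting floor where it had at most 3 counts in every library, which corresponds to 0.0888 to 0.114 CPM depending on the library. Of 56941 genes in the table, 12507 (22.0%) were present, 35527 (62.4%) were at the floor and 8907 lay between. The present genes had a median of 21.0 CPM. The floor covers counting error only, and a gene at the floor was not detectable at this depth rather than shown to be absent.

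The 5 defining fibroblast markers were all present, and the label fibroblasts held in this respect. The gingival part of the label was not tested by these 5 genes. Col1a1, the α1 chain of type I collagen (chr11:94827050-94843868, GRCm39), had 13824, 13995, 14580.1 and 14375 CPM in replicates 1 to 4. Col3a1, the chain of type III collagen, had 4959, 4723, 5109 and 5023 CPM. Prrx1, a homeobox factor of limb and craniofacial mesenchyme, had 2004, 2113, 2293 and 2068 CPM. All 3 exceeded 1000 CPM in every library. Twist1, a bHLH factor of cranial mesenchyme (chr12:34007645-34009828), had 98.97, 106, 91.6 and 109 CPM. Dcn, the small leucine-rich proteoglycan decorin (chr10:97315275-97358155), had 70.5, 72.6, 73.3 and 72.6 CPM, the lowest of the 5 markers on the CPM scale and also on the RPKM scale, at 5.54 ± 0.0949 RPKM.

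The 9 further fibroblast markers were also present, over a wide range. Vim, the intermediate filament vimentin, had 5659 ± 213 CPM, and the platelet-derived growth factor receptors Pdgfra and Pdgfrb had 213 ± 7.50 and 379 ± 12.9 CPM. Thy1, a surface glycoprotein used to sort fibroblasts, had 195 ± 5.23 CPM. At the other end, Fap, a serine protease of activated fibroblasts, had 17.2 ± 0.672 CPM. Cd34 had 4.50 ± 0.532 CPM, S100a4 had 2.67 ± 0.261 CPM and Lum, the proteoglycan lumican, had 1.82 ± 0.184 CPM. For S100a4, 50.5% of its longest transcript was shared with other genes, so its count is uncertain.

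Short upstream sequences are shown for 3 genes of the profile, to set the start regions of a lineage factor and of abundant matrix genes beside their levels. They are the 120 bases before an annotated start in RefSeq (GRCm38.p6, written 5′ to 3′ on the gene's strand). Of the 5 defining markers, Col3a1, Prrx1 and Twist1 had an entry. Capitals mark a match to TATAAA or CCAAT, or to their reverse complements TTTATA or ATTGG, and Postn is shown at the second of its listed starts. In all promoters of the table, cut to the same length, TATAAA on either strand was found in 6.34% and CCAAT in 21.3% of 32851.
Twist1 (chr12:33957551-33957670, plus strand): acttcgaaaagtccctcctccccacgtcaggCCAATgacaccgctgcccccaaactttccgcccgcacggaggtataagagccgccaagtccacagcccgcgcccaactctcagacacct
Col1a2 (chr6:4505498-4505617, plus strand): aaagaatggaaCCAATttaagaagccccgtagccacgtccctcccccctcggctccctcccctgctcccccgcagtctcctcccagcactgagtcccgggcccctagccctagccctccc
Postn (chr3:54360987-54361106, plus strand): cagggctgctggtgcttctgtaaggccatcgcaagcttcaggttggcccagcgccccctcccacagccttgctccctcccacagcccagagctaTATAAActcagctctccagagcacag
Twist1 and Col1a2 each held 1 match to CCAAT and none to TATAAA, and this start of Postn held 1 match to TATAAA and none to CCAAT. The 3 were chosen because they hold a match. Among starts not shown, that of Col3a1 held 1 match to TATAAA. The second listed starts of the receptor genes Il1r1 and Il1rl1 each held 1 match to CCAAT. The starts of Prrx1, Sparc and Nt5e and the first listed starts of Postn, Il1r1 and Il1rl1 held neither motif. A match is a description of the letters and does not show that a factor binds there.

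Markers of the other cell types that an explant culture could hold were mostly low. In bulk RNA, fewer cells of a type and less RNA per cell cannot be told apart. None of 10 epithelial markers was present, and their summed level was 0.610 to 1.12 CPM over the libraries. The keratins Krt14, Krt6a and Krt4, which define gingival epithelium, had no count in any library, although 50.3% of the longest Krt6a transcript was shared with other genes. None of 6 endothelial markers was present, with a sum of 2.24 to 2.71 CPM, and none of 4 melanocyte markers, with a sum of 0.444 to 0.711 CPM. Tyr and Dct, enzymes of melanin synthesis, and Cldn5, a junction protein of vessels, had no count. Other members lay between the floor and 1 CPM, namely 5 epithelial, 5 endothelial and 1 melanocyte marker. Among them, Cdh5 had 0.710 ± 0.165, Pecam1 0.570 ± 0.0338, Pmel 0.548 ± 0.132, Cdh1 0.333 ± 0.154 and Dsg3 0.202 ± 0.0702 CPM.

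Of 9 leukocyte markers, 1 was present. Csf1r, the receptor for macrophage colony-stimulating factor, had 1.60, 1.29, 1.72 and 1.19 CPM, and Cd68, a lysosomal protein of macrophages, had 1.54, 0.678, 0.877 and 1.47 CPM. Ptprc, the pan-leukocyte phosphatase CD45, had no count in replicate 1 and 0.153 CPM at most. Cd3e and Mpo had no count. Itgam had none either, with 72.3% of its transcript shared.

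Contractile genes were present throughout their list, and markers of vascular mural cells in part. All 7 contractile genes were present, led by Acta2, the smooth muscle actin of myofibroblasts, with 3353, 3235, 3156 and 3607 CPM. Tagln, an actin-binding protein, had 638 ± 19.4 CPM, and Myh11, the smooth muscle myosin heavy chain, had 20.9 ± 0.277 CPM. Of 6 mural markers, 4 were present: Mcam at 103 ± 3.69, Cspg4 at 56.1 ± 6.10, Notch3 at 20.8 ± 1.26 and Rgs5 at 4.26 ± 0.632 CPM. The pericyte channel genes Kcnj8 and Abcc9 had at most 0.0646 and 0.148 CPM in any library.

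Genes of the hard and fibrous tissues next to the gingiva were partly present. All 5 tendon and ligament markers were, with Postn, the periodontal ligament protein periostin, at 12506, 12805, 12419 and 12535 CPM, Aspn at 443 ± 15.3 CPM and Scx, a tendon transcription factor, at 30.1 ± 3.60 CPM. Tnmd, a late tendon marker, had 2.06 ± 0.308 CPM. Of 7 bone and cementum markers, 4 were present. Spp1, osteopontin, had 1357 ± 36.7 CPM and Runx2, the early osteoblast factor, had 52.7 ± 1.30 CPM, and the other present members were Dmp1, a protein of osteocytes and cementum, with 2.84 ± 0.285 CPM and Alpl with 1.61 ± 0.364 CPM. Sp7, a later osteoblast factor, had 0.200 ± 0.0530 CPM and Ibsp was at the floor. Bglap had no count, with 99.8% of its transcript shared. Sox9, the cartilage factor, had 54.0 ± 3.21 CPM, beside 0.129 ± 0.0979 CPM for Acan, the main cartilage proteoglycan.

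The remaining lists held 1 or 2 present genes each. In the adipocyte list this was Pparg, with 19.6 ± 0.251 CPM, while Adipoq, Plin1, Lep and Cidec were at the floor. In the skeletal muscle list it was Des, with 1.57 ± 0.259 CPM, and Myod1, Myog, Myf5 and Pax7 were at the floor. In the glial list Mbp had 8.80 ± 1.06 CPM, with Sox10, the factor that defines Schwann cells, at the floor.

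**Figure D1:**
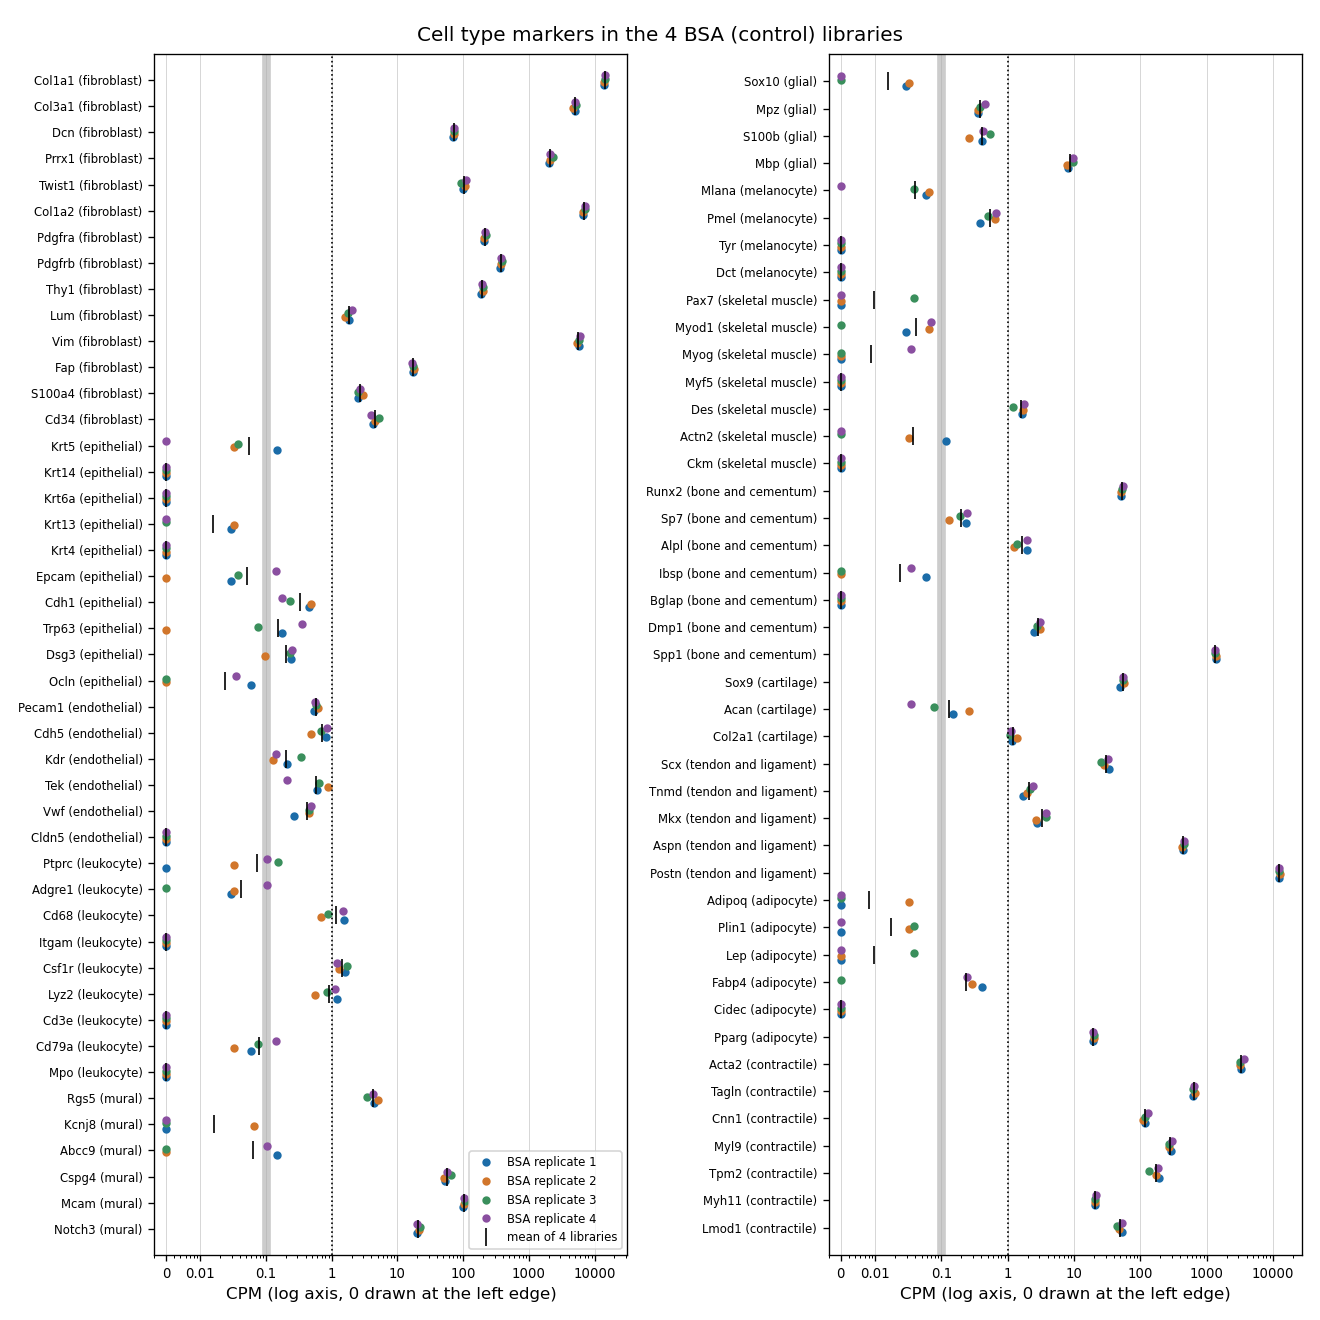
Level in CPM (log axis, with 0 drawn at the left edge) of the cell type markers in the 4 BSA libraries. Points are libraries, ticks are means, the dotted line is 1 CPM and the grey band is the level of 3 counts. All 14 fibroblast and 7 contractile genes lie right of the dotted line, and no epithelial, endothelial or melanocyte gene does so in every library.

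All 8 genes of the cell cycle list were present. Mki67, a marker of cycling cells, had 129, 135, 120 and 134 CPM, and Top2a, the topoisomerase of replicating cells, had 137 ± 5.00 CPM. The list also counts the cell cycle inhibitors Cdkn1a, with 197 ± 5.05 CPM, and Cdkn2a, with 36.9 ± 3.30 CPM, so it is not a list of proliferation genes alone. Pcna and Ccnb1 share 51.4% and 49.7% of their transcripts with other genes, and their counts are uncertain.

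Positional genes were described by Hox genes and by factors of the jaw. Hox genes pattern the trunk, limbs and hindbrain, and fibroblasts of the face are known to lack most of them. None of 39 Hox genes was present, 30 were at the floor and 14 of these had no count in any library. Over all 56941 genes, 22.0% were present, 62.4% were at the floor and 25871 had no count. Of 18 factors of the jaw mesenchyme, 10 were present. They include Prrx1 and Twist1, which are also counted among the defining fibroblast markers. Barx1, a homeobox factor of the molar region, had 30.2, 29.9, 28.5 and 29.5 CPM, Prrx2 had 25.5 ± 2.71 CPM and Msx1, a factor of tooth development, had 10.4 ± 0.646 CPM. Tfap2a, a neural crest factor, had 5.94 ± 0.444 CPM and Alx1 had 5.84 ± 0.453 CPM. Dlx5 had 0.477 ± 0.135 CPM, and Dlx6, its neighbour in the genome, was at the floor.

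Matrix genes took a large share of the RNA. The 31 fibrillar collagen and other matrix genes held 10.1% to 10.6% of all gene counts, and 17 of them exceeded 1000 CPM, a level that 69 genes of the table reached. On the RPKM scale, the highest genes were the mitochondrial ribosomal RNA mt-Rnr2 at 69395 ± 2672 RPKM, then mt-Rnr1 and mt-Co1, followed by Col1a1 at 2161 ± 52.7 RPKM and Sparc, a collagen-binding glycoprotein, at 2082 ± 55.9 RPKM. After the ribosomal protein gene Rplp1, Actb and Malat1, Postn stood at 1435 ± 19.0 RPKM. Next came Vim, then Bgn, the proteoglycan biglycan, at 1177 ± 47.3 RPKM and Thbs1, thrombospondin 1, at 1149 ± 67.4 RPKM. Fn1, fibronectin, had 989 ± 85.9 RPKM and Grem1, a secreted inhibitor of BMP, had 962 ± 23.4 RPKM. Of the 19 neighbouring pairs in the order of the 20 highest genes, 14 overlapped between libraries, so the order within them is loose. When the longest transcript replaced the union of exons as the length, 18 of the 20 genes stayed among the 20 highest, but their order changed. By that length Sparc had 3491, Bgn 2649.8, Postn 2406 and Col1a1 2394 RPKM, in this order after the mitochondrial genes, and Fn1 had 1861 RPKM.

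**Figure D2:**
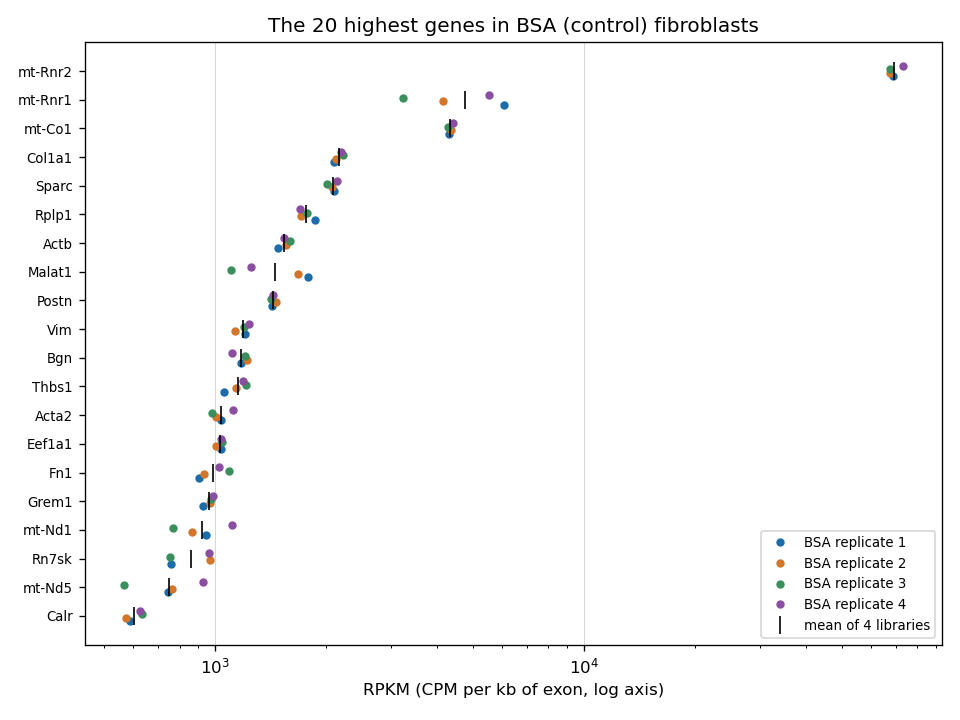
RPKM (log axis) of the 20 genes with the highest mean, one point per BSA library and a tick at the mean. mt-Rnr2 stands at 69395 RPKM, Col1a1 and Sparc at 2161 and 2082 RPKM, and mt-Rnr1 and Malat1 show the widest spread among the libraries.

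Of 11 fibrillar collagen genes, 10 were present, with Col24a1 (0.410 ± 0.139 CPM) as the exception. The RPKM of Col1a1 was 3.94 ± 0.0823 times that of Col1a2, its partner in the type I collagen trimer, and the ratio was 1.88 ± 0.0392 with the longest transcript as the length, so its size depended on the gene model. The RPKM of Col1a1 was 4.49 ± 0.114 times that of Col3a1, or 2.74 ± 0.0693 times by the longest transcript. Col5a1 and Col5a2, chains of the type V collagen that nucleates fibrils, had 3175 ± 213 and 3739 ± 84.7 CPM. Col2a1, the cartilage collagen, had 1.18 ± 0.142 CPM.

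Of 20 other matrix genes, 19 were present, and Col14a1, a fibril-associated collagen, was between the floor and 1 CPM with 0.740, 0.614, 0.534 and 0.419 CPM. Its relative Col12a1 had 5139, 5321, 5804 and 5771 CPM. The small proteoglycans also lay far apart: the RPKM of Bgn was 212 ± 8.81 times that of Dcn, and 228 ± 9.45 times by the longest transcript. Lox, the enzyme that cross-links collagen and elastin, had 2629.5 ± 143 CPM, whereas Eln, elastin itself, had 12.8 ± 1.44 CPM beside 1306 ± 79.01 CPM for Fbn1, the fibrillin of the microfibrils on which elastin is laid.

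Genes of matrix turnover were present in 7 of 8 proteases and 3 of 4 inhibitors. Mmp2, a gelatinase, had 938 ± 19.3 CPM and Mmp14, its membrane-bound activator, had 677 ± 12.3 CPM. The collagenase Mmp13 had 17.2 ± 0.450 CPM, Mmp9 had 6.93 ± 0.789 CPM and Mmp3, stromelysin, had 8.64 ± 0.812 CPM, with 22.9% of its transcript shared. Mmp8, the neutrophil collagenase, had 1 count over the 4 libraries. Among the inhibitors, Timp2 had 1543 ± 47.8 CPM, Timp3 had 945 ± 69.7 CPM and Timp1 had 103 ± 9.71 CPM, and Timp4 was at the floor.

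Transcripts of the receptors through which IL-1β acts were present in these cells, which were given no cytokine. IL-1α and IL-1β bind Il1r1, which signals once it recruits the accessory chain Il1rap. Il1r1 (chr1:40264174-40356417) had 41.2, 40.5, 46.0 and 43.2 CPM, and Il1rap (chr16:26400350-26548880) had 43.9, 45.4, 47.5 and 47.6 CPM. Each chain was thus present in all 4 libraries, with at least 1205 counts of Il1r1 and 1244 of Il1rap in each. The decoy receptor Il1r2, which binds IL-1 without signalling, had 0.118, 0.194, 0 and 0.140 CPM, and Sigirr, an inhibitory family member, was at the floor.

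Among the 9 receptors of the family, 5 were present, and the highest was Il1rl1, the IL-33 receptor ST2 (chr1:40468730-40504575), with 435, 461, 505 and 475 CPM. On the RPKM scale Il1rl1 was 10.9 ± 0.332 times Il1r1, with a ratio of 10.4 to 11.3 over the libraries. Gene counts do not separate the membrane form of ST2 from its secreted form. Il1rl2, the IL-36 receptor, had 23.6 ± 1.87 CPM. Il18rap had 12.5 ± 0.374 CPM, but its partner Il18r1, the chain that binds IL-18, had 0.198 ± 0.0932 CPM.

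The ligands themselves were scarce. Il1a had 2 counts and Il1b 1 count over the 4 libraries, so both were at the floor. Il1rn, the receptor antagonist, had 2.15 ± 0.172 CPM, Il18 had 5.59 ± 0.417 CPM and Il33 had 2.84 ± 0.287 CPM. All 10 adaptors, kinases and regulators listed for the pathway were present. Myd88, the adaptor shared with Toll-like receptors, had 19.9, 19.5, 18.2 and 17.2 CPM, and Irak1, a kinase it recruits, had 75.1 ± 0.757 CPM. Map3k7, the kinase TAK1, had 102 ± 2.42 CPM and its binding partner Tab2 had 228 ± 4.45 CPM. Irak3, an inhibitor of the pathway, had 6.62 ± 0.361 CPM.

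Surface receptors for fatty acids were all at the counting floor. Ffar1 and Ffar4, the G protein-coupled receptors for long-chain fatty acids, had no count in any library, and Ffar2, Ffar3, Gpr84 and Hcar2 had 1 count each over the 4 libraries. Cd36, the scavenger receptor that takes up long-chain fatty acids (chr5:17986432-18094067), also had 1 count in all. Of the 14 genes for uptake and transport, 7 were present. Fabp5, an intracellular fatty acid carrier, had 301, 246, 268 and 294 CPM. Dbi, the acyl-CoA binding protein, had 24.1 ± 2.79 CPM, and the transport protein Slc27a4 had 22.7 ± 2.59 CPM. Fabp4, the adipocyte carrier, had 0.414, 0.291, 0 and 0.245 CPM.

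The enzymes that activate fatty acids inside the cell were all present. Acsl4 had 74.4 ± 2.50 CPM, Acsl3 had 57.1 ± 2.34 CPM, Acsl5 had 47.1 ± 1.80 CPM, Acsl1 had 13.9 ± 0.682 CPM and Acsl6 had 1.34 ± 0.211 CPM. Of the nuclear receptors that fatty acids bind, Ppard had 32.9 ± 1.85 CPM and Pparg 19.6 ± 0.251 CPM, and Ppara had 0.222 ± 0.197 CPM, of which replicate 2 held the most. Toll-like receptors have been linked to responses to saturated fatty acids, and the 4 genes listed for these receptors and their co-receptors were all present. Tlr4 had 32.8, 31.5, 33.5 and 34.0 CPM and Tlr2 had 12.7 ± 0.613 CPM. The co-receptors Ly96 and Cd14 had 2.01 ± 0.248 and 1.54 ± 0.256 CPM, and on the RPKM scale Tlr4 was 5.40 ± 1.02 times Cd14, or 8.72 ± 1.64 times by the longest transcript.

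None of the 4 adenosine receptors was present. Adora2b, the low-affinity receptor (chr11:62139804-62157279), had 0.562, 0.775, 0.458 and 0.944 CPM, from 12 to 27 counts per library. Adora1 had 0.474, 0.194, 0.229 and 0.175 CPM, and Adora2a had 1 to 4 counts per library. Adora3 had no count, with 31.3% of its transcript shared. All 4 receptors thus stayed below 1 CPM in every library, and Adora2b was the only one with at least 12 counts in each.

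Of 8 ectoenzymes that act on nucleotides outside the cell, 4 were present. Nt5e, the ectonucleotidase CD73 that converts AMP to adenosine (chr9:88209089-88254146), had 22.6, 23.4, 24.1 and 22.5 CPM. Entpd1, the ectoenzyme CD39 that converts ATP to AMP, had 1.39, 1.16, 1.03 and 1.75 CPM, from 27 to 50 counts. Enpp1, which also makes AMP from ATP, had 19.5, 18.9, 19.6 and 19.8 CPM. Alpl, the alkaline phosphatase, had 1.61 ± 0.364 CPM, and Entpd3 and Entpd8 were at the floor.

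Of the genes listed for handling adenosine, 4 of 5 for its turnover (Adk, Ada, Ahcy, Pnp and Dpp4) and 2 of 7 transporters were present. Adk, which phosphorylates adenosine, had 33.4 ± 2.02 CPM and Ada, which deaminates it, had 8.15 ± 0.604 CPM. Dpp4, the surface protein that anchors Ada in some species, was at the floor. The equilibrative transporters Slc29a1 and Slc29a3 had 32.6 ± 1.45 and 42.1 ± 2.40 CPM. The other equilibrative transporters, Slc29a2 and Slc29a4, had 0.641 ± 0.0470 and 0.256 ± 0.188 CPM, and the concentrative transporters Slc28a1, Slc28a2 and Slc28a3 were at the floor, the second of them with 87.5% of its transcript shared. Ahcy and Pnp had 11.2 ± 1.14 and 13.9 ± 0.701 CPM, with 81.8% and 44.7% of their transcripts shared.

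Of 14 receptors for ATP and other nucleotides, 6 were present, led by the channel P2rx4 with 33.0, 31.1, 31.3 and 32.4 CPM. P2rx6 had 7.73 ± 0.692 CPM, P2ry14, the receptor for UDP-glucose, had 6.94 ± 0.444 CPM and P2rx7, the channel linked to the inflammasome, had 2.89 ± 0.435 CPM. Both ATP release genes were present, with Gja1, a gap junction protein, at 131 ± 5.42 CPM and Panx1, pannexin 1, at 9.40 ± 1.28 CPM.

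**Figure D3:**
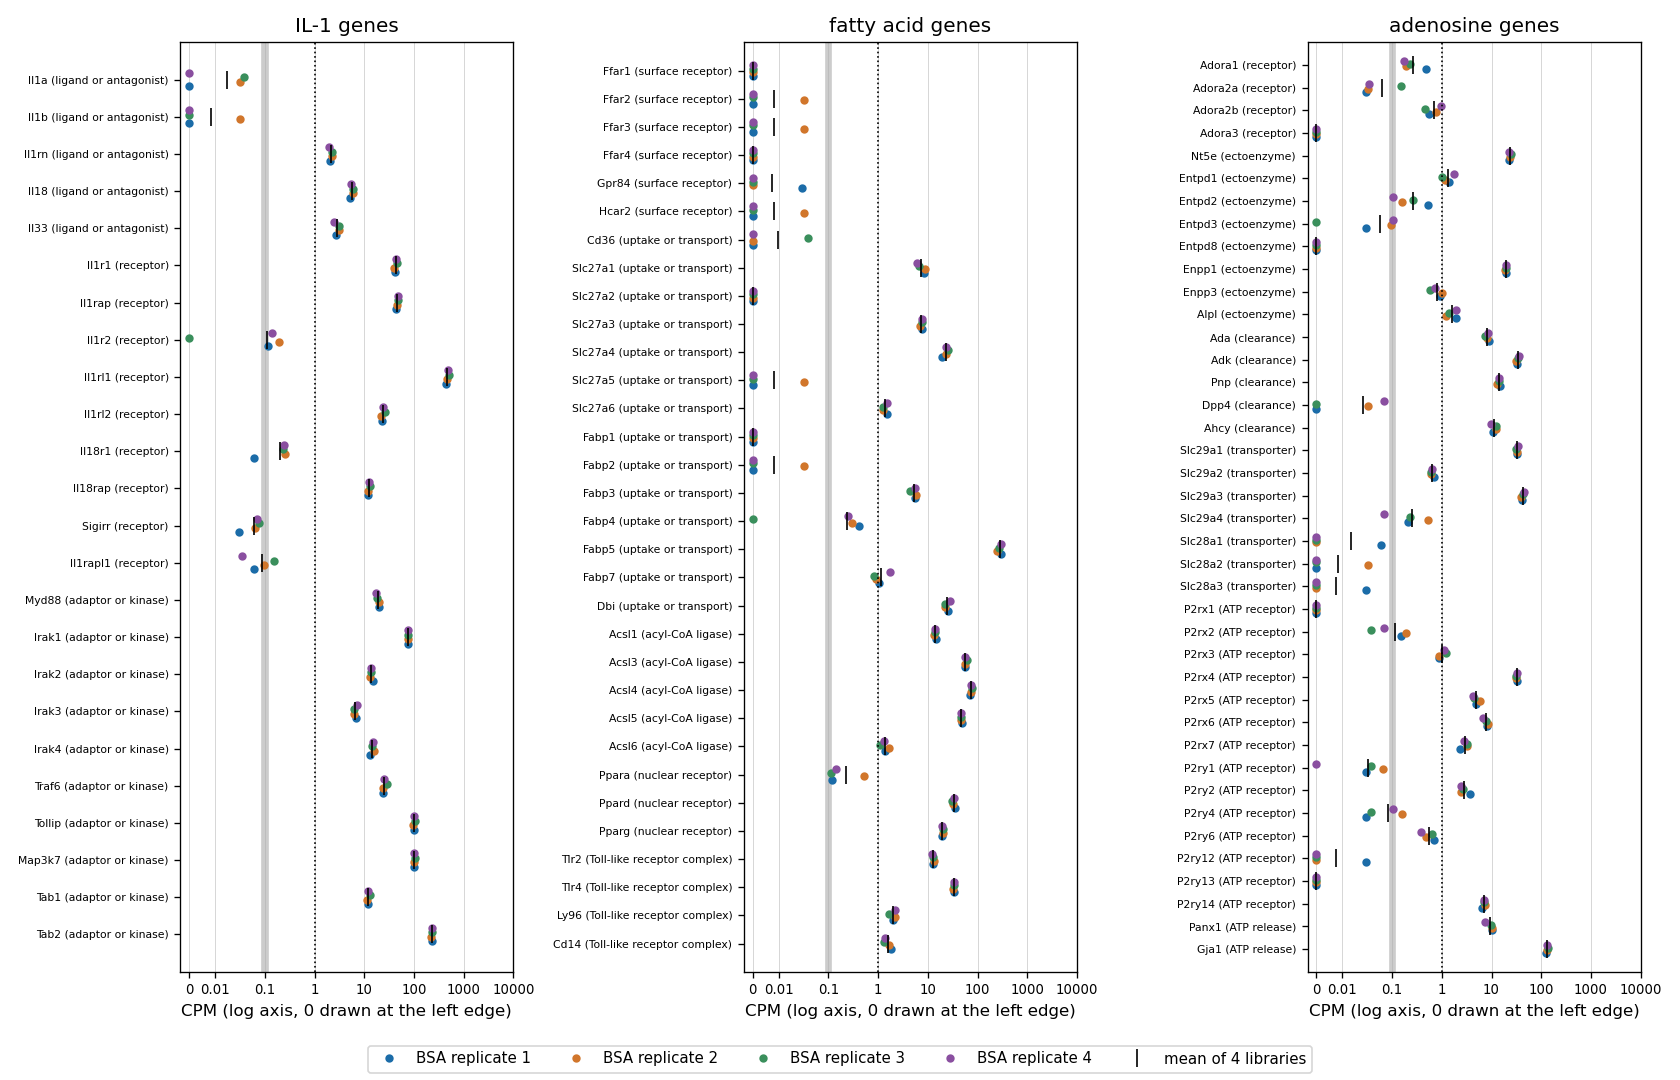
Level in CPM (log axis, with 0 drawn at the left edge) of the IL-1, fatty acid and adenosine genes in the 4 BSA libraries, with points for libraries, ticks for means, a dotted line at 1 CPM and a grey band at the level of 3 counts. Il1r1, Il1rap and all 10 adaptors, kinases and regulators lie right of the dotted line, and the 6 fatty acid surface receptors and 4 adenosine receptors lie left of it in every library.

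Mitochondrially encoded genes took 12.2% to 13.4% of the gene counts, of which mt-Rnr2 alone took 10.9% to 11.7%. The values of the protein genes differed with where they lie, and the cause was not tested. A nuclear copy of mitochondrial DNA on chromosome 1 (chr1:24650616-24655265, minus strand, 4650 bases) is 99.957% identical to positions 6394 to 11042 of the mitochondrial genome. The 6 protein genes that lie wholly within the copied stretch had mean levels of 0.656 to 11.1 RPKM, and the 5 that lie wholly outside it had 235 to 922 RPKM. mt-Co2, a subunit of cytochrome oxidase inside the stretch, had 2.29, 2.17, 1.67 and 1.99 RPKM. The genes partly inside were not low: mt-Co1, with 31.0% of its length inside, had 4310.4, 4361, 4276 and 4420.2 RPKM. mt-Nd4, with 63.6% inside, had 386 ± 94.4 RPKM. Sequence shared with transcripts of other genes covered 100% of mt-Co1 and 52.3% of mt-Nd5, which lies outside the stretch. The counts kept only reads assigned to 1 gene. The part of reads matching both places in the low values of the 6 genes inside the copied stretch was not tested. The levels of these 6 genes are therefore not given as levels of the transcripts.

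**Figure D4:**
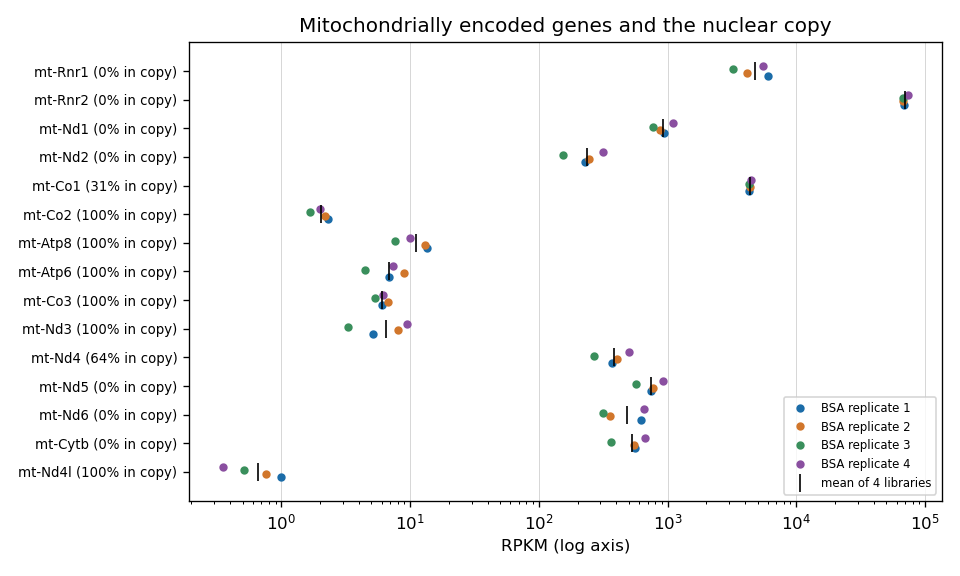
RPKM (log axis) of the mitochondrially encoded ribosomal RNA and protein genes in the 4 BSA libraries, with the percent of each gene inside the stretch copied on chromosome 1 beside its name. The 6 protein genes wholly inside lie at 0.656 to 11.1 RPKM and the 5 wholly outside at 235 to 922 RPKM.

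The 4 libraries were close to each other. Among 8197 genes with at least 10 CPM in every library, the coefficient of variation had a median of 5.06% and a 95th percentile of 11.4%, and 91.6% of the genes were under 10%. No such gene was more than 2-fold from the mean of the libraries in any of them. The common biological coefficient of variation was 6.22%, and 4.91% without replicate 3. No pair of libraries agreed within sampling noise, with chi-square values per degree of freedom of 4.68 to 12.1, so none was counted as a second deposit of another. These values do not tell separate cultures from repeat preparations of 1 sample.

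Replicate 3 stood apart in short transcripts, in ribosomal protein genes and in the median of the mitochondrially encoded protein genes. Its median log2 ratio to the mean of the libraries was -0.14 over 76 cytosolic ribosomal protein genes and -0.51 over 7 mitochondrially encoded protein genes, and replicate 4 was at 0.10 and 0.32. It was -0.15 over 88 genes whose longest transcript was under 1000 bases and 0.07 over 379 genes with one of 10000 bases or more. Replicate 3 was the lowest library in 50 of the 76 ribosomal protein genes, against 2177 of all 8197 genes. The most abundant mitochondrial transcripts differed in this. In replicates 1 to 4, mt-Rnr2 had 108858, 107108, 107159 and 116006 CPM and mt-Co1 had 6660, 6738, 6607 and 6829 CPM. By contrast, mt-Rnr1 had 5798, 3959, 3093 and 5279 CPM, lowest in replicate 3. For the 26 matrix genes the medians lay between -0.05 and 0.04 in the 4 libraries. Replicate 3 also had the lowest depth, and the part of depth or RNA quality in these differences was not tested.

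**Figure D5:**
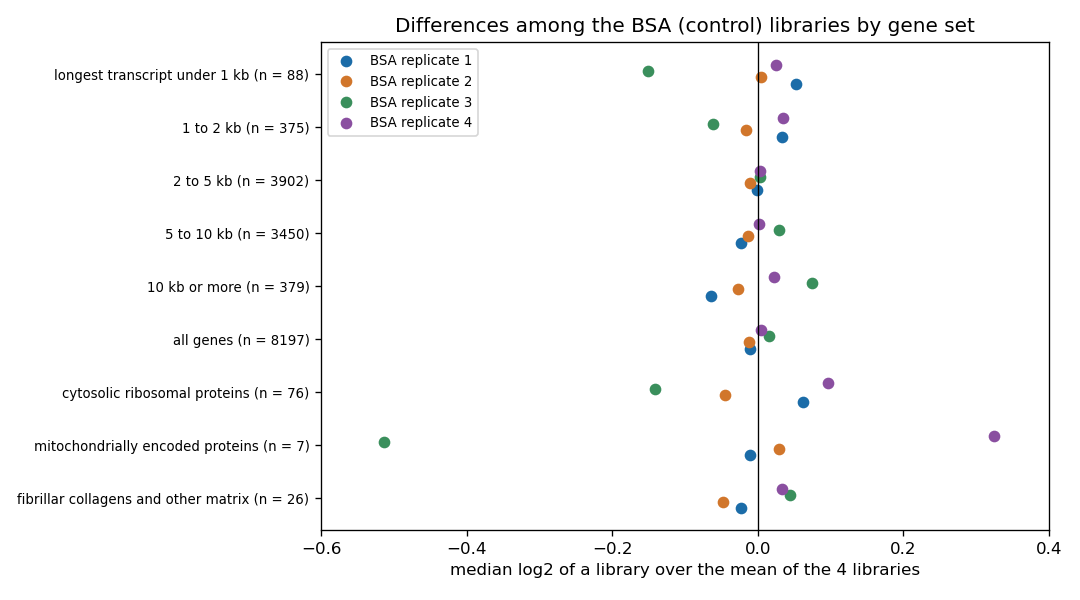
Median log2 ratio of each BSA library to the mean of the 4 libraries, for genes grouped by longest transcript, for all genes of at least 10 CPM and for 3 gene sets, with n genes given beside each name. Replicate 3 lies lowest for transcripts under 1 kb, ribosomal protein genes (-0.14) and mitochondrially encoded proteins (-0.51), and highest for transcripts of 10 kb or more (0.07).

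The 10 genes that varied most included 3 ribosomal protein genes (Rpl37, Rpl23 and Rpl36), the small RNA genes Rn7s2 and Gm22009, and Gm28439, a pseudogene within the nuclear copy of mitochondrial DNA. Rpl37 had 25.4, 10.4, 9.35 and 24.5 CPM and Rpl23 had 102, 72.9, 56.1 and 117 CPM, both lower in replicates 2 and 3 than in 1 and 4. Ribosomal protein genes have many near-identical copies in the genome, so these counts are uncertain. mt-Nd6, the mitochondrial protein gene on the opposite strand to the others, had 325, 185, 164 and 337 CPM, with the same libraries low. Malat1, a nuclear long noncoding RNA among the 20 highest genes, had 14087, 13206.5, 8702 and 9874 CPM, and the libraries high in it were replicates 1 and 2.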

How the data were processed

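RNA was sequenced in bulk from the 4 BSA (control) samples and 12 treated samples. The authors trimmed reads with Trimmomatic 0.39, aligned them with STAR 2.7.10a to GRCm39 and counted them per gene with HTSeq 2.0.9, and the deposited values are raw counts. Library preparation is described in 2 ways, as a stranded kit for total RNA in the labels and as oligo(dT) priming in the methods, so which RNAs were captured is uncertain. Only samples with an RNA integrity number of at least 7 were used.

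TMM factors were computed with edgeR 4.0.16 in R 4.3.3 over all 16 libraries after filterByExpr (minimum count 10, minimum total 15), which kept 16306 genes. CPM is the count per 1000000 counts of the scaled library size. RPKM is CPM per kilobase of the union of exons, from GENCODE vM39, which matched 56323 of 56941 genes. In each BSA library, 18.3% to 21.4% of reads were not assigned to 1 gene. Shared sequence is the part of a gene's longest transcript matching another gene's at 95% identity or more. The named genes are the 20 with the highest RPKM, members of the lists, Hox genes as a count and the 10 most variable genes of at least 10 CPM. The members and lists were chosen with earlier results of these data known. Values of a few named genes are not reported here. No test between groups was run, and the libraries were compared pairwise by chi-square on counts and by Dixon's criterion for single values. The script for the spread was tested on simulated data. Alternatives were other scalings, among them DESeq2 1.42.0 size factors, other thresholds, the longest transcript as length, and each replicate left out.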

Additional observations from a re-analysis of the deposited data

Results flagged for a closer look

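In 6 of 168 levels tested, 1 library lay far from the other 3 by Dixon's criterion for 4 samples, and chance flags about 1 in 20 such groups. Replicate 3 was the separate library for 3 of them. Pdgfra had 224 CPM there and 209 to 211 CPM in the others, Alx4, a craniofacial homeobox factor, had 1.26 CPM against 0.937 to 0.979 CPM, and Des, the muscle intermediate filament, had 1.18 CPM against 1.66 to 1.75 CPM. Replicate 4 had 189.8 CPM of Cdkn1a, against 199 to 201 CPM. Replicate 2 had 51.3 CPM of Pcna, against 58.5 to 59.6 CPM. Replicate 1 had 5.15 CPM of Col11a2, a minor fibrillar collagen chain, against 4.01 to 4.12 CPM.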

How the results depend on the processing

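The counts of present genes used a threshold of 1 CPM. At 0.5 CPM, 1 endothelial and 3 leukocyte genes were present. At 2 CPM, 0 leukocyte, 1 glial, 0 skeletal muscle and 1 cartilage gene remained above the threshold. Without mitochondrially encoded and ribosomal RNA genes, the 10 most abundant genes held 11.3% of counts and the 100 most abundant held 28.05%, against 20.2% to 20.9% and 36.3% to 37.2% over the libraries with them. The common biological coefficient of variation was between 4.91% and 6.64% when each replicate was left out, and the lowest value was the one without replicate 3. Of 168 levels, 24 moved by more than 1 SD without TMM factors and 23 with factors from the BSA libraries alone, all upward, by a median of 2.69% in both, and none did so with DESeq2 size factors. Col1a1 was at 14574 and 14576 CPM under the first and second of these. Depth limits genes at the floor, where a level under 3 counts cannot be told from 0. No paired analysis was possible because the result comes from no test and the groups share no replicate numbers.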
